A study of Mus musculus with 9 samples.

Results

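The 10 genes described here are targets of the hypoxia-inducible factors (HIFs) and enzymes of glucose use: Stc1, Adm, Vegfa, Slc2a1, Hk2, Pfkfb3, Pgk1, Ldha, Ddit4 and Egln3. They were chosen by name, and all 10 were found among the 17179 gene symbols of 9 mouse aorta RNA sequencing libraries. In these libraries Stc1, which encodes a secreted glycoprotein, was higher in aortas of mice given BAPN alone. It measured 18.9 and 22.0 FPKM there, against 2.29 and 1.63 FPKM in normal aortas. In mice given BAPN and a second agent, Stc1 lay at 2.15 to 4.58 FPKM. It was the only one of the 10 genes to pass the test in any of 5 comparisons of the values as deposited. That call, in BAPN against normal, was lost with only those 2 groups fitted. FPKM is a level of expression, the number of sequenced fragments of a gene corrected for its length and for the sequencing depth of the library.

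All mice were C57BL/6J, and those other than the normal mice received BAPN (β-aminopropionitrile, an inhibitor of lysyl oxidase, the enzyme that cross-links elastin and collagen) at 1 g/kg/day. The TPA group (2 libraries) received BAPN and, from day 1, intraperitoneal TPA (a phorbol ester that activates protein kinase C) at 50 ng/g/day. The T-5224 group (2 libraries) received BAPN and T-5224 (an inhibitor of the AP-1 transcription factor) at 5 mg/kg/day by gavage, begun on day 7 or 14. The coQ10 group (1 library) received BAPN and coenzyme Q10 at 10 mg/kg/day by gavage begun on the same days, and its treatment is spelled differently in the labels, where coQ10 is the reading taken. The BAPN group (2 libraries) received BAPN alone, and the normal group (2 libraries) drank distilled water. Mice were killed on day 28. The protocol counts 12 mice a treatment and lists fewer groups than the labels have treatments. Age, sex and the number of mice behind a library are not stated there. The T-5224 libraries are titled 2 weeks (replicate 1) and 3 weeks (replicate 2), lengths that gavage from day 14 or day 7 to day 28 would give. Whether their treatment differed is not stated, so a difference in treatment length cannot be told apart from a difference between replicates. Nothing states that replicates came from separate animals, so p-values measure only the spread between these samples.

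When oxygen falls, the prolyl hydroxylases of the Egln family stop marking HIF alpha subunits for destruction by the von Hippel-Lindau protein, and HIF binds DNA at a short core motif near its targets. The targets bring in glucose (Slc2a1), trap it (Hk2), speed glycolysis (Pfkfb3), carry it out (Pgk1) and turn pyruvate into lactate (Ldha). Others are secreted signals to vessels (Vegfa, Adm), a restraint on mTORC1 growth signalling (Ddit4), or a hydroxylase that feeds back on HIF (Egln3). Several of these genes also answer to glucocorticoids, inflammation or cell stress, so their RNA alone is no measure of oxygen.

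The core letters of the HIF motif, ACGTG or GCGTG, were sought on either strand in the 250 bases before each RefSeq start (GRCm38.p6). All 9 genes that had an entry held them before at least 1 start, in 11 of their 12 windows. The exception was the first Vegfa window, so 8 of the 9 genes held them in the first window. In Vegfa they stood only before a second start, inside the gene. ACGTG was found in 9 windows of 8 genes and GCGTG in 6 windows. Over all 32851 promoter windows of the same length, 16.6% held ACGTG, 28.2% held GCGTG and 38.6% held either. The AP-1 motif TGANTCA was in 0 of the 12 windows, and in 6.75% of all windows. The genes were chosen as HIF targets, so these counts are a description. Below are 5 windows: those of Adm, Ddit4 and Egln3, whose highest values lay in the same library, and those of Slc2a1 and Pgk1, which shared another. Each is written 5′ to 3′ on the strand of its gene, and capitals mark ACGTG or GCGTG on either strand (CACGT and CACGC read on the other strand).
Adm promoter (chr7:110627407-110627656, plus strand): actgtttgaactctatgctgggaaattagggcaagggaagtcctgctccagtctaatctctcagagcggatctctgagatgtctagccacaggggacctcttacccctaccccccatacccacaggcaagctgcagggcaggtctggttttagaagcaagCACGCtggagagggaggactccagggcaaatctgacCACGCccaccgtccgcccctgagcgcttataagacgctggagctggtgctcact
Ddit4 promoter (chr10:59951771-59952020, minus strand): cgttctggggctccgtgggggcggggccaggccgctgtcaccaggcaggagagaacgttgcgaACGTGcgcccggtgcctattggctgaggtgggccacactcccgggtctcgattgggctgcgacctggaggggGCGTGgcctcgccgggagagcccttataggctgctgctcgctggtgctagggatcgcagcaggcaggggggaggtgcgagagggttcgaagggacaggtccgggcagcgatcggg
Egln3 promoter (chr12:54203875-54204124, minus strand): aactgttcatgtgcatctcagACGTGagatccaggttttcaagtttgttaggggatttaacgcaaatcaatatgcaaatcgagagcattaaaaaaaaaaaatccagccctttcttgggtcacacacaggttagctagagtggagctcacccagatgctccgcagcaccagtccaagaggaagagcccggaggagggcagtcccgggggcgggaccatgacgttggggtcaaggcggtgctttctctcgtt
Slc2a1 promoter (chr4:119108495-119108744, plus strand): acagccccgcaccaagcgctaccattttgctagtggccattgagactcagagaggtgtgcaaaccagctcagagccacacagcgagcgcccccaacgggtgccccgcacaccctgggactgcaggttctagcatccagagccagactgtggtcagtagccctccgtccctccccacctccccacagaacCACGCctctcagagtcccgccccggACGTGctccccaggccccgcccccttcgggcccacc
Pgk1 promoter (chrX:106186850-106187099, plus strand): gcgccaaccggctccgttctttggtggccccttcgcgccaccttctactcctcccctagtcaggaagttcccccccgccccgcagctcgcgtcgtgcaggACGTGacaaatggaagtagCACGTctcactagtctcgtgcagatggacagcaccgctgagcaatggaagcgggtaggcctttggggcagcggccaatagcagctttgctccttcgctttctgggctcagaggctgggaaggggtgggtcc
In Pgk1 the letters ACGTG began 150 and 131 bases before the start, in Egln3 229 bases and in Slc2a1 36 bases before it. In Ddit4 they began 187 bases before the start, with GCGTG at 115. Adm held only GCGTG, at 90 and 54 bases. In Ldha the palindrome CACGTG occurred, which counts on both strands. Whether HIF bound any of these sites was not measured.

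The libraries differed in more than treatment. Haemoglobin genes took 69.4% and 69.2% of summed FPKM in the TPA libraries, 40.8% and 11.2% in the T-5224 libraries, 5.4% in coQ10, 68.9% and 74.1% in the BAPN libraries, and 1.25% and 1.03% in the normal libraries. All 8 contractile smooth muscle markers were listed in every library, as an aorta should show, at a mean log2(FPKM + 1) of 5.30 to 9.69. Markers of tissue around the aorta were uneven within groups. The 10 skeletal muscle markers averaged 8.45 in T-5224 replicate 2, against 1.35 in replicate 1, and the 8 cardiac markers averaged 9.62 in normal replicate 1, against 2.49 in replicate 2. Fat markers averaged 4.44 to 8.48. The replicates of the normal group and those of the T-5224 group thus differed in their tissue markers. For some changes of the 10 genes, the value without 1 of these 4 libraries is given. Other changes also moved, some in sign, when 1 of them was left out. Same-group libraries correlated across genes at 0.794 to 0.967, and libraries of different groups at 0.716 to 0.94. Between 13982 and 16204 genes were listed per library. FPKM carry no counts, so the depth is unknown.

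**Figure D1:**
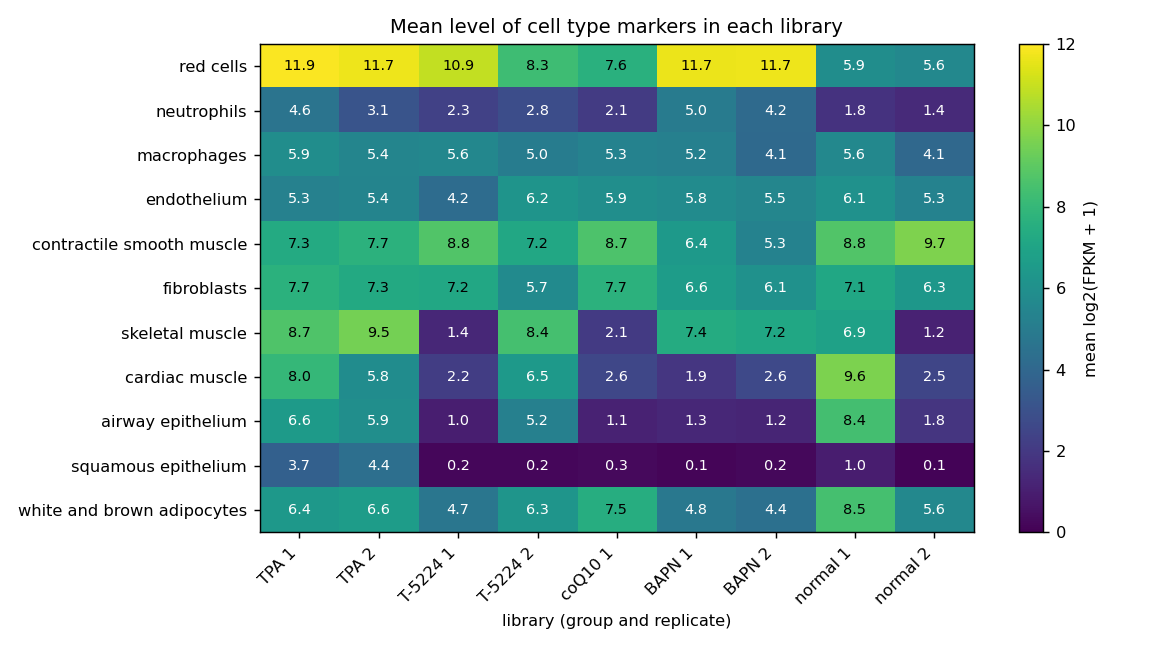
Mean log2(FPKM + 1) of marker genes of the aortic wall and of other tissues and cells, as a colour grid with the value in each cell. Rows are marker lists, and columns are libraries, by group (TPA, T-5224, coQ10, BAPN, normal). Muscle, airway and fat markers differ between replicates of the T-5224 and normal groups, and the red cell markers are lowest in the normal group, at 5.88 and 5.61.

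Each gene was tested with limma on log2(FPKM + 1), so a fold change understates the change of low genes, and p-values were adjusted by Benjamini-Hochberg over all 12997 tested genes. All 10 genes were tested. Their mean levels over 9 libraries ran from 7.07 FPKM for Stc1 to 294 FPKM for Ldha, which lay above 98.0% of tested genes.

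**Figure D2:**
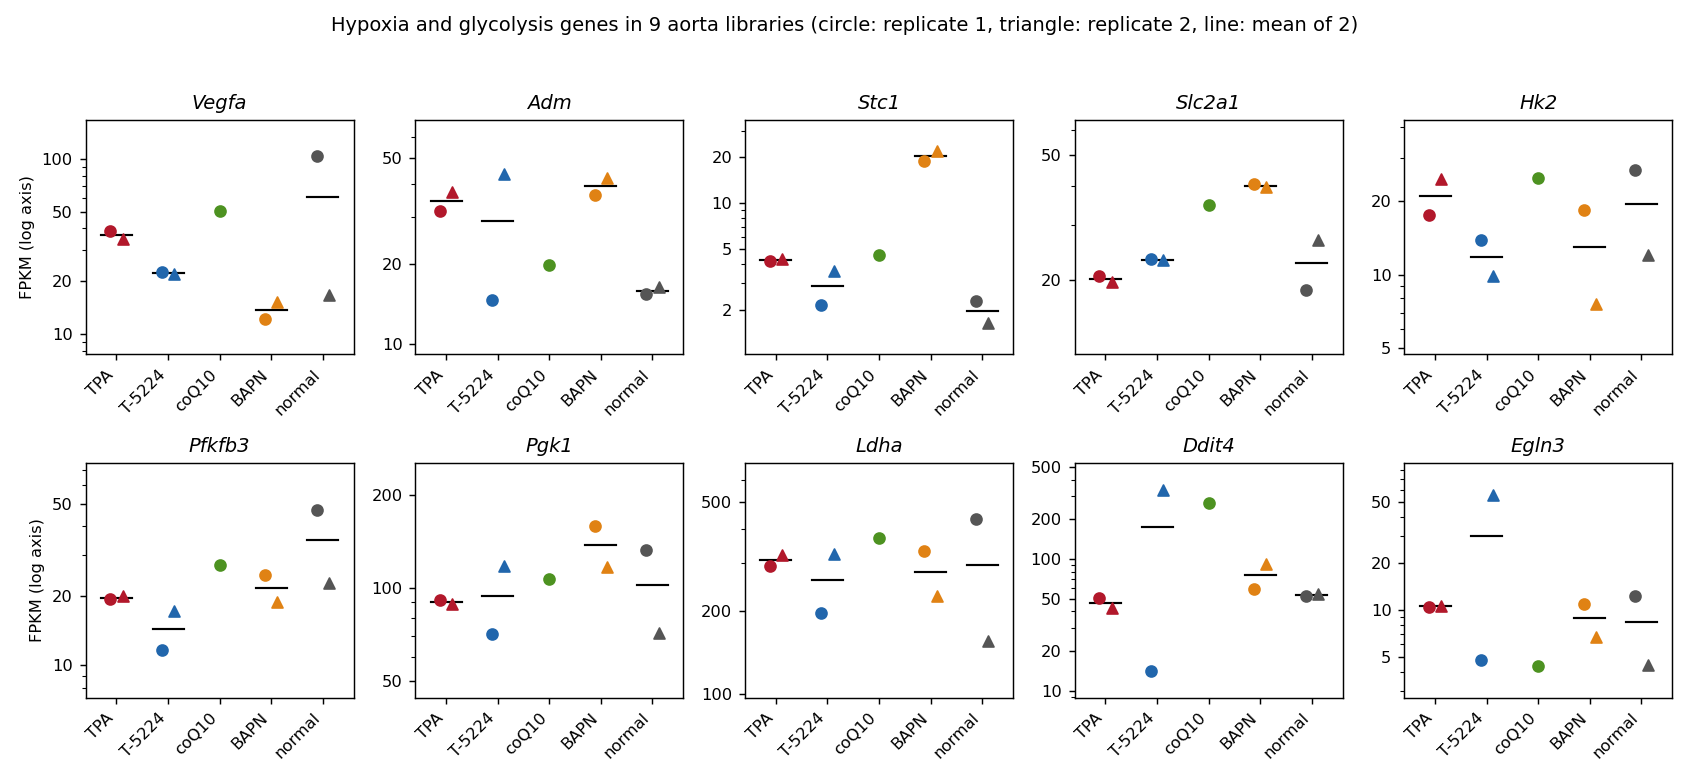
FPKM (log axis) of each of the 10 genes in 9 libraries, by group (TPA, T-5224, coQ10, BAPN, normal), with a line at the mean of 2 replicates. Stc1 is high in both BAPN libraries only, at 18.9 and 22.0 FPKM, and Ddit4 in T-5224 replicate 2 and coQ10, at 332 and 267 FPKM.

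Stc1 (chromosome 14, 69029289 to 69041401, GRCm38) encodes stanniocalcin 1, a hormone-like glycoprotein induced by hypoxia in many cells. Its levels were 4.19 and 4.29 FPKM in TPA libraries, 2.15 and 3.61 FPKM in T-5224 libraries, 4.58 FPKM in coQ10, 18.9 and 22.0 FPKM in BAPN libraries, and 2.29 and 1.63 FPKM in normal libraries. The BAPN libraries lay above all others, and the highest of the rest was coQ10. BAPN libraries averaged 20.5 ± 2.21 FPKM and normal libraries 1.96 ± 0.467 FPKM (SD, n = 2 each), a ratio of 10.4. The log2 change was 2.86 (SE 0.32) with an adjusted p of 0.0274 by limma, and 3.37 relative to the median of all tested genes. Leaving out any 1 of normal replicates 1 and 2, BAPN replicates 1 and 2, or TPA replicates 1 and 2 took the adjusted p to between 0.0556 and 0.246, so the call rests on all 6 libraries. It was also lost with only the 2 groups fitted (adjusted p 0.0609), and it passed in 11 of 19 alternatives. The direction was the same in all 19 alternatives (log2 change 1.49 to 3.34). A transcript antisense to Stc1, Gm41192, overlaps its exons and was not listed in any library. The strand of the reads is not stated. Neutrophil and red cell markers moved in the same direction: 8 neutrophil markers averaged 4.98 and 4.17 in BAPN, against 1.76 and 1.42 in normal libraries, and 8 red cell markers 11.7 and 11.7, against 5.88 and 5.61. The TPA pair, with Stc1 at 4.19 and 4.29 FPKM, had red cell markers at 11.9 and 11.7, close to BAPN. Its neutrophil markers averaged 4.61 in replicate 1, between the BAPN libraries, and 3.11 in replicate 2, below both. The T-5224 and coQ10 libraries lay below both BAPN libraries in both marker sets, as in Stc1. Of the neutrophil markers, Ly6g was listed only in BAPN replicate 1 and TPA replicate 1. Their part in the Stc1 change was not tested. In bulk tissue, a change in the number of cells and a change in RNA per cell cannot be told apart.

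Stc1 was lower in every treated library than in both BAPN libraries. Against BAPN the log2 change was -2.03 (SE 0.32, adjusted p 0.223) for TPA, -2.49 (SE 0.32, adjusted p 0.101) for T-5224 and -1.94 (SE 0.39, adjusted p 0.185) for coQ10, by limma, none of which passed. These comparisons share the same 2 BAPN libraries. The sign held in every alternative run for the 3 comparisons, and the change passed in 2 of 19 for TPA, 5 of 19 for T-5224 and 1 of 17 for coQ10. The passes for T-5224 included median-of-ratios scaling, where the change was -2.82 with an adjusted p of 0.0337. Within its family, Stc1 made up 97.8% and 90.1% of the sum of Stc1 and Stc2 in BAPN libraries, against 32.8% and 20.5% in normal libraries. That share was 50.1% and 66.9% in TPA libraries, 48.9% and 83.2% in T-5224 libraries and 36.1% in coQ10.

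Adm (chromosome 7, 110627657 to 110629820) encodes adrenomedullin, a vasodilator peptide made by vascular and fat cells. Its levels were 31.6 and 37.4 FPKM in TPA libraries, 14.7 and 43.3 FPKM in T-5224 libraries, 19.9 FPKM in coQ10, 36.4 and 41.9 FPKM in BAPN libraries, and 15.4 and 16.4 FPKM in normal libraries. Both BAPN libraries lay above both normal libraries, while T-5224 spanned the whole range. The log2 change of Adm in BAPN against normal was 1.25 (SE 0.48), with an adjusted p of 0.13 by limma. T-5224 libraries do not enter that change, so leaving either out could not move it. Over all fits with libraries left out, the Adm change in BAPN against normal ran from 1.15 to 1.34. The change for TPA against BAPN was -0.18 (SE 0.48, adjusted p 0.909). For T-5224 against BAPN it was -0.60 (SE 0.48, adjusted p 0.508), but -1.35 without T-5224 replicate 2 and 0.15 without T-5224 replicate 1. For coQ10 against BAPN it was -0.94 (SE 0.59, adjusted p 0.406). In TPM (values rescaled to a common sum in every library), Adm in BAPN against normal was at -0.36.

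Vegfa (chromosome 17, 46016993 to 46032377) encodes the main growth factor for endothelial cells. Its levels were 38.8 and 34.9 FPKM in TPA libraries, 22.4 and 22.0 FPKM in T-5224 libraries, 50.4 FPKM in coQ10, 12.2 and 15.2 FPKM in BAPN libraries, and 104 and 16.6 FPKM in normal libraries. BAPN libraries were lowest, and normal replicate 1 was 6.29-fold above normal replicate 2, a larger gap than in 96.0% of tested genes. The change in BAPN against normal was -1.56 (SE 0.75, adjusted p 0.197), without normal replicate 1 it was -0.27, and without normal replicate 2 it was -2.85 and passed (adjusted p 0.0404). All TPA, T-5224 and coQ10 libraries lay above both BAPN libraries. Their log2 changes against BAPN were 1.37 (SE 0.75, adjusted p 0.542) for TPA, 0.67 (SE 0.75, adjusted p 0.639) for T-5224 and 1.82 (SE 0.91, adjusted p 0.312) for coQ10. The highest 4 libraries in Vegfa (normal replicate 1, coQ10 and both TPA libraries) were also the highest 4 in the mean log2(FPKM + 1) of the 8 fat cell markers. These means were 6.42 and 6.62 in TPA, 4.71 and 6.28 in T-5224, 7.46 in coQ10, 4.79 and 4.44 in BAPN, and 8.48 and 5.62 in normal libraries. The summed FPKM of the 8 markers gave another order. T-5224 replicate 2 (19710) stood above normal replicate 1 (12500), and TPA replicate 1 (3436) below BAPN replicate 1 (4569). All 8 were listed in every library except Lep in T-5224 replicate 2. Their part in the Vegfa values was not tested. Vegfa made up 16.2% to 38.7% of the summed FPKM of Vegfa, Vegfb, Vegfc, Figf and Pgf, with no group apart from the others.

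Slc2a1 (chromosome 4, 119108745 to 119137330) encodes GLUT1, the glucose transporter that serves most cells. Its levels were 20.7 and 19.7 FPKM in TPA libraries, 23.4 and 23.2 FPKM in T-5224 libraries, 34.7 FPKM in coQ10, 40.5 and 39.7 FPKM in BAPN libraries, and 18.6 and 27.0 FPKM in normal libraries. BAPN libraries were the highest, and TPA and T-5224 libraries lay within the range of the normal libraries. The log2 change was 0.81 (SE 0.28, adjusted p 0.105) in BAPN against normal. It was -0.95 (SE 0.28, adjusted p 0.415) in TPA against BAPN, -0.76 (SE 0.28, adjusted p 0.235) in T-5224 against BAPN and -0.20 (SE 0.34, adjusted p 0.771) in coQ10 against BAPN. In TPM the direction turned, to -0.81 (adjusted p 0.0577) in BAPN against normal and to 1.24 (adjusted p 0.0366) in coQ10 against BAPN. Antisense Gm12868 overlaps exons of Slc2a1 and was not listed in any library. Slc2a1 took 27.3% and 26.4% of the summed FPKM of Slc2a1, Slc2a3 and Slc2a4 in TPA libraries, 52.6% and 46.6% in T-5224 libraries, 51.1% in coQ10, 53.3% and 49.4% in BAPN libraries, and 20.7% and 65.3% in normal libraries. Markers of skeletal muscle, which expresses Slc2a4, averaged 8.69 and 9.50 in TPA libraries, against 7.37 and 7.17 in BAPN libraries. Slc2a4 measured 38.9 and 45.3 FPKM in the TPA pair, and 7.57 and 8.89 FPKM in the BAPN pair. It was 31.7 FPKM in coQ10, where muscle markers averaged 2.06. Slc2a4 was highest in normal replicate 1 (65.0 FPKM), the TPA pair and coQ10. These libraries were also highest in the mean log2 level of fat cell markers, though not in their summed FPKM. In the T-5224 and normal groups, the replicate higher in Slc2a4 was higher in both marker sets. The part of either set in the Slc2a1 share was not tested.

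Hk2 (chromosome 6, 82725025 to 82774454) encodes a hexokinase that traps glucose. It measured 17.4 and 24.6 FPKM in TPA libraries, 13.8 and 9.85 FPKM in T-5224 libraries, 24.9 FPKM in coQ10, 18.3 and 7.56 FPKM in BAPN libraries, and 26.7 and 12.0 FPKM in normal libraries. The BAPN replicates differed 2.42-fold and the normal replicates 2.23-fold, so the groups overlapped. The change was -0.56 (SE 0.53, adjusted p 0.48) in BAPN against normal (-0.02 without normal replicate 1, -1.11 without normal replicate 2), 0.76 (SE 0.53, adjusted p 0.618) in TPA against BAPN, -0.02 (SE 0.53, adjusted p 0.99) in T-5224 against BAPN and 1.01 (SE 0.64, adjusted p 0.414) in coQ10 against BAPN. Hk2 took 26.5% and 14.5% of the summed FPKM of Hk1, Hk2 and Hk3 in BAPN libraries, against 35.1% and 27.7% in normal libraries.

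Pfkfb3 (chromosome 2, 11471430 to 11554071) makes the metabolite that switches phosphofructokinase on. It measured 19.3 and 19.9 FPKM in TPA libraries, 11.6 and 17.1 FPKM in T-5224 libraries, 27.2 FPKM in coQ10, 24.5 and 18.9 FPKM in BAPN libraries, and 46.8 and 22.8 FPKM in normal libraries. Normal replicate 1 stood above the others, and both T-5224 libraries lay below both BAPN libraries. The change was -0.58 (SE 0.40, adjusted p 0.342) in BAPN against normal (-0.08 without normal replicate 1, -1.09 without normal replicate 2) and -0.58 (SE 0.40, adjusted p 0.457) in T-5224 against BAPN.

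Pgk1 (chromosome X, 106187100 to 106203699) encodes phosphoglycerate kinase, which makes ATP in glycolysis. It measured 91.5 and 88.9 FPKM in TPA libraries, 70.7 and 118 FPKM in T-5224 libraries, 107 FPKM in coQ10, 158 and 117 FPKM in BAPN libraries, and 133 and 71.7 FPKM in normal libraries. Both TPA libraries lay below both BAPN libraries, while T-5224 replicate 2 reached the level of BAPN replicate 2. The change was 0.47 (SE 0.42, adjusted p 0.46) in BAPN against normal (0.91 without normal replicate 1, 0.03 without normal replicate 2) and -0.59 (SE 0.42, adjusted p 0.632) in TPA against BAPN. Processed pseudogene copies of Pgk1 and Ldha exist, and the handling of reads that match both is not stated.

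Ldha (chromosome 7, 46842274 to 46855627) encodes the muscle-type lactate dehydrogenase subunit. It measured 293 and 320 FPKM in TPA libraries, 197 and 322 FPKM in T-5224 libraries, 369 FPKM in coQ10, 331 and 227 FPKM in BAPN libraries, and 432 and 156 FPKM in normal libraries. The normal replicates, 2.78-fold apart, enclosed all other libraries, and no Ldha change passed, the change in BAPN against normal being 0.08 (SE 0.56, adjusted p 0.932). Without normal replicate 1 it was 0.81, and without normal replicate 2 it was -0.65. Ldha made up 43.8% of Ldha and Ldhb in T-5224 replicate 2 and 71.2% in replicate 1.

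**Figure D3:**
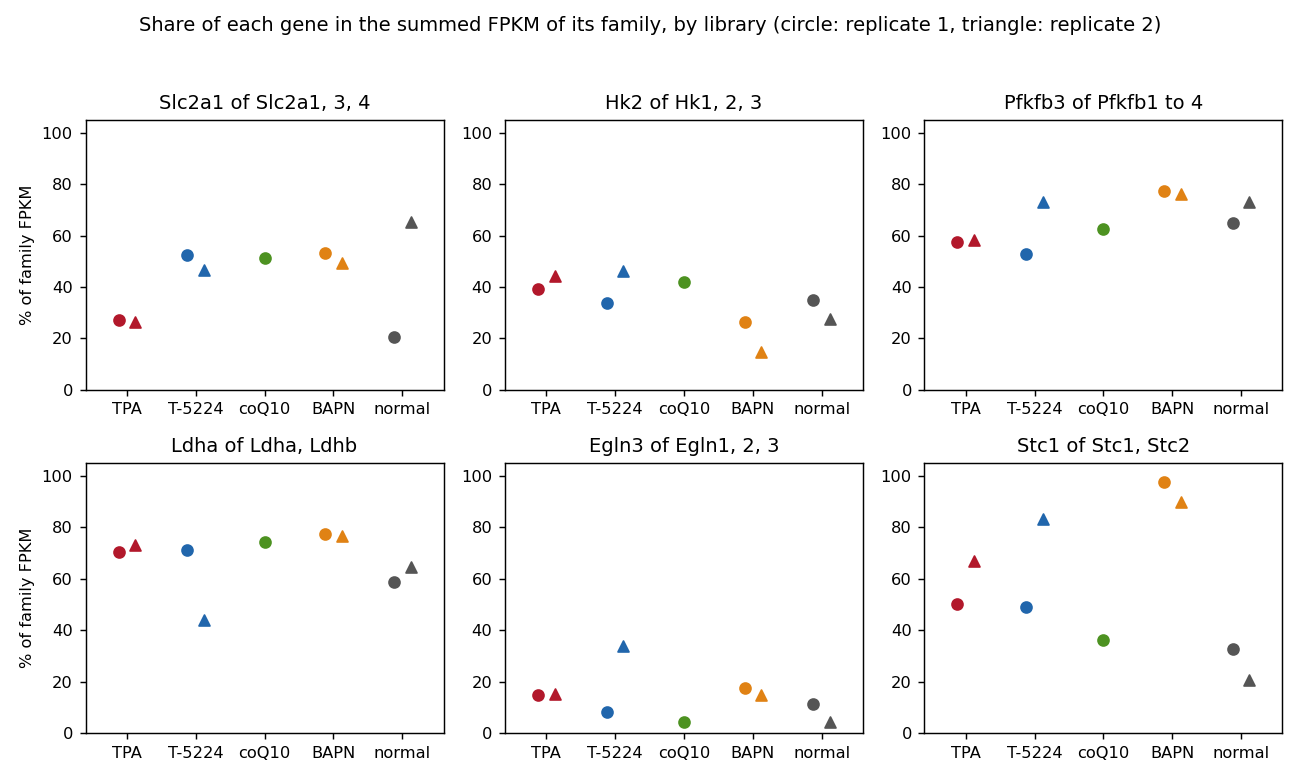
Share of each gene in the summed FPKM of its family, 1 point a library, by group (TPA, T-5224, coQ10, BAPN, normal). The Stc1 share is 97.8% and 90.1% in BAPN and at most 83.2% in any other library, and that of Slc2a1 ranges from 20.7% to 65.3% within the normal group alone.

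Ddit4 (chromosome 10, 59949675 to 59951770) encodes REDD1, an inhibitor of mTORC1 that hypoxia and glucocorticoids induce. Its levels were 50.3 and 42.3 FPKM in TPA libraries, 14.2 and 332 FPKM in T-5224 libraries, 267 FPKM in coQ10, 59.4 and 92.2 FPKM in BAPN libraries, and 51.9 and 54.1 FPKM in normal libraries. The T-5224 replicates thus held both the lowest and the highest value, 23.4-fold apart, a larger gap than in 99.0% of tested genes. The log2 change in T-5224 against BAPN was -0.08 (SE 1.25, adjusted p 0.981). It was -2.30 without T-5224 replicate 2 and 2.15 without T-5224 replicate 1, so it depends on which T-5224 library is used. In coQ10 against BAPN the change was 1.84 (SE 1.53, adjusted p 0.531), in TPA against BAPN -0.67 (SE 1.25, adjusted p 0.861) and in BAPN against normal 0.48 (SE 1.25, adjusted p 0.811).

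Egln3 (chromosome 12, 54178981 to 54203874) encodes a prolyl hydroxylase that HIF itself induces. Its levels were 10.5 and 10.7 FPKM in TPA libraries, 4.78 and 55.5 FPKM in T-5224 libraries, 4.34 FPKM in coQ10, 10.9 and 6.73 FPKM in BAPN libraries, and 12.4 and 4.42 FPKM in normal libraries. T-5224 replicate 2 was 11.6-fold above replicate 1, and the highest of the other libraries was normal replicate 1. The change was 0.17 (SE 1.00, adjusted p 0.919) in BAPN against normal (0.82 without normal replicate 1, -0.48 without normal replicate 2), 0.27 (SE 1.00, adjusted p 0.939) in TPA against BAPN, 0.91 (SE 1.00, adjusted p 0.634) in T-5224 against BAPN (2.56 without T-5224 replicate 1, -0.73 without T-5224 replicate 2) and -0.84 (SE 1.23, adjusted p 0.731) in coQ10 against BAPN. Egln3 made up 34.0% of the summed FPKM of Egln1, Egln2 and Egln3 in T-5224 replicate 2 and 8.3% in replicate 1. Bnip3, a HIF target for mitochondrial turnover chosen after its values were seen, was also higher in T-5224 replicate 2, at 522 FPKM, and at 17.9 FPKM in replicate 1. T-5224 replicate 2 was the highest of all libraries in 3 of the 10 genes (Adm, Ddit4, Egln3), and in 21.8% of all tested genes. T-5224 replicate 1 was the lowest in 4 (Adm, Pfkfb3, Pgk1, Ddit4), and in 8.04% of all tested genes.

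Across the 10 genes the replicates of the groups were not equally close. The median absolute log2 difference between replicates was 0.10 in TPA, 0.63 in T-5224, 0.40 in BAPN and 0.94 in normal libraries, against 0.21, 0.74, 0.33 and 0.45 over all tested genes. Members over 2-fold apart numbered 0 of 10 in TPA, 3 in T-5224, 1 in BAPN and 5 in normal libraries. In 4 of the 10 genes normal replicate 1 was the highest library, namely Vegfa, Hk2, Pfkfb3 and Ldha, beside 24.9% of all tested genes. It also carried the highest mean log2 levels of cardiac markers (9.62), airway markers (8.41) and fat markers (8.48). Their part in these values was not tested.

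In BAPN against normal, 1 of 10 genes passed, Stc1, upward, beside 3.26% of all tested genes passing in either direction and 0.900% passing upward. An unadjusted p under 0.05 was reached by 3 of 10 (Adm, Stc1, Slc2a1), beside 32.4% of all tested genes. The groups did not overlap in 4 genes that were higher (Adm, Stc1, Slc2a1, Ddit4) and in 1 that was lower (Vegfa), beside 15.0% of all tested genes higher and 51.1% lower. The median log2 change of the 10 genes was 0.32 and that of all tested genes -0.51, so the list stood 0.83 above the whole. The scaling sets the median of all genes, which was -0.51 as deposited, -0.01 after median-of-ratios scaling and -1.92 in TPM, while the list stayed 0.43 to 1.00 above that median in all 19 alternatives, the lowest value being without normal replicate 2. In TPM, Adm, Slc2a1, Pgk1, Ldha, Ddit4 and Egln3 changed sign in this comparison, to between -1.58 (Ldha) and -0.36 (Adm).

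In TPA against BAPN, 0 of 10 genes passed by limma, beside 0.0385% of all tested genes. An unadjusted p under 0.05 was found for 2 of 10 (Stc1, Slc2a1), beside 10.2% of all tested genes. Vegfa was higher without overlap, and Stc1, Slc2a1, Pgk1 and Ddit4 were lower without overlap, beside 41.4% of all tested genes higher and 21.2% lower. The median change was -0.15, against 0.18 for all tested genes. The changes of Vegfa (1.37), Stc1 (-2.03) and Slc2a1 (-0.95) rest on TPA and BAPN libraries only. Leaving out normal replicate 1 and T-5224 replicate 2 therefore could not move them.

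In T-5224 against BAPN, 0 of 10 passed, beside 0.0308% of all tested genes, and 2 of 10 had an unadjusted p under 0.05 (Stc1, Slc2a1), beside 18.3% of all tested genes. With normal replicate 1 and T-5224 replicate 2 left out, the largest changes were Stc1 at -2.76, Ddit4 at -2.30 and Adm at -1.35. Vegfa was higher without overlap and Stc1, Slc2a1 and Pfkfb3 were lower, beside 34.2% of all tested genes higher and 12.8% lower. The median was -0.35, against 0.35 for all tested genes. In coQ10 against BAPN, where the spread of the single coQ10 library was taken from the other groups, 0 of 10 passed, beside 0.0154% of all tested genes, and 1 had an unadjusted p under 0.05 (Stc1), beside 19.8% of all tested genes. The largest changes were -1.94 for Stc1, 1.84 for Ddit4 and 1.82 for Vegfa. Normal replicate 1 and T-5224 replicate 2 do not enter them, so leaving both out could not move them. The coQ10 value lay above both BAPN libraries in 5 genes (Vegfa, Hk2, Pfkfb3, Ldha, Ddit4) and below both in the other 5, beside 59.6% of all tested genes above and 24.1% below. The median was 0.06, against 0.39 for all tested genes.

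In TPA against T-5224, 0 of 10 passed, beside 0.0154% of all tested genes, and 0 had an unadjusted p under 0.05, beside 10.9% of all tested genes. Without T-5224 replicate 1, Ddit4 was at -2.82, Egln3 at -2.29 and Adm at -0.32. Without T-5224 replicate 2, they were at 1.63, 1.00 and 1.18. TPA libraries were higher without overlap in 4 genes and lower in 1, beside 16.5% of all tested genes higher and 28.0% lower. Vegfa differed by 0.70 (SE 0.75, adjusted p 0.734), Hk2 by 0.78 (SE 0.53, adjusted p 0.59), Pfkfb3 by 0.45 (SE 0.40, adjusted p 0.685) and Stc1 by 0.46 (SE 0.32, adjusted p 0.595), all upward, and Slc2a1 was lower by -0.20 (SE 0.28, adjusted p 0.812). The median was 0.35, against -0.08 for all tested genes, and -0.12 relative to that median without T-5224 replicate 1.

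**Figure D4:**
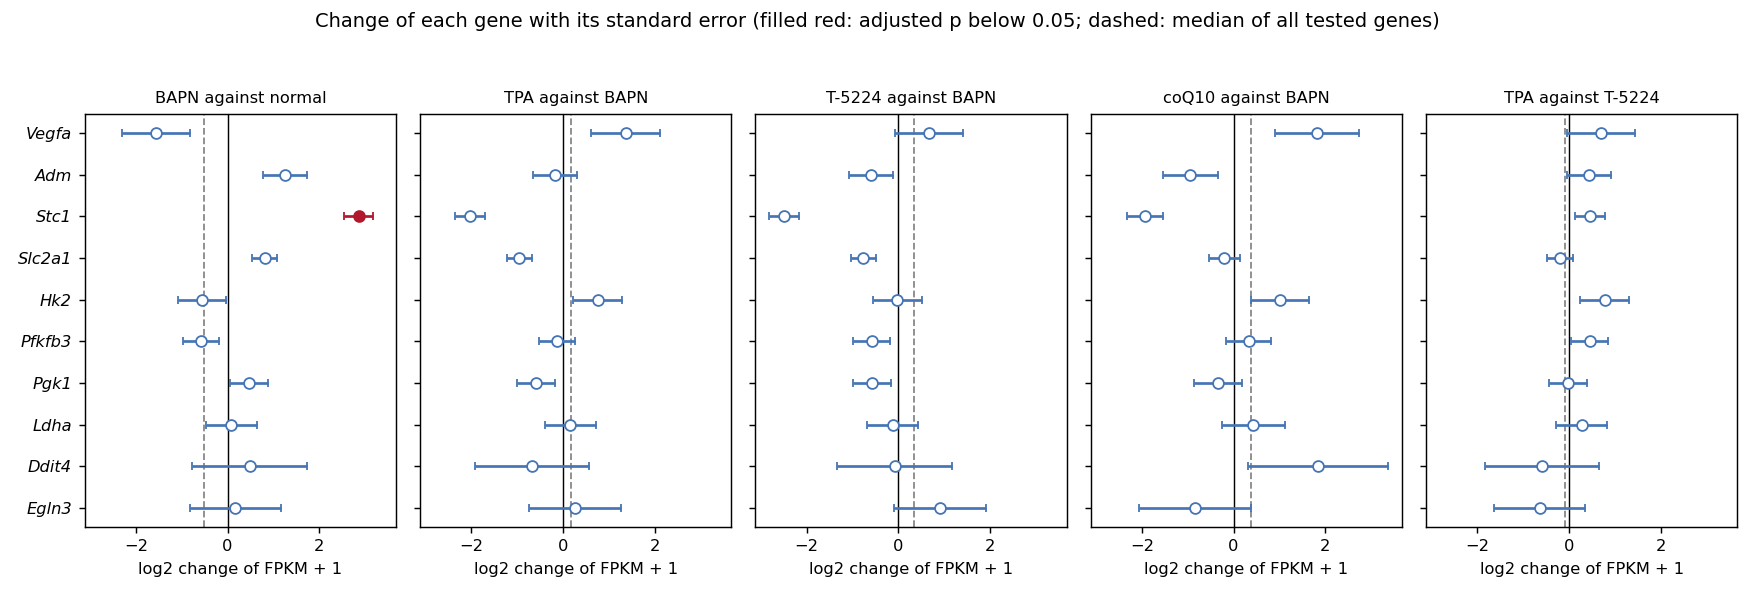
Log2 change of FPKM + 1 of each of the 10 genes with its standard error in the 5 comparisons, with a dashed line at the median of all tested genes. Stc1 in BAPN against normal, at 2.86, is the only value marked as having an adjusted p below 0.05.

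Around the 10 genes, 5 lists of related genes were read: other HIF targets (29 of 32 tested), other glycolysis genes (28 of 33), oxygen sensing (11 of 11), receptors and relatives of the secreted proteins (15 of 17) and stress genes related to Ddit4 (16 of 16). In BAPN against normal, 2 of 29 other HIF targets tested rose and 0 fell, beside 0.900% of all tested genes passing upward and 3.26% either way: Hilpda, which stores lipid in hypoxic cells, and Hmox1, the haem-degrading enzyme. Hilpda measured 27.2 and 40.2 FPKM in BAPN libraries, against 5.53 and 6.18 FPKM in normal libraries (log2 change 2.32, SE 0.38, adjusted p 0.0458 by limma). Hmox1 measured 801 and 206 FPKM in BAPN libraries, against 28.5 and 14.6 FPKM in normal libraries (log2 change 4.25, SE 0.83, adjusted p 0.0490). Both passed in 7 of 19 alternatives, with adjusted p from 0.0134 to 0.246 for Hilpda and 0.0177 to 0.246 for Hmox1, and leaving out any 1 normal, BAPN or TPA library ended both calls. Hmox1 is also induced by haem, and red cell markers were higher in BAPN libraries (11.7 and 11.7, against 5.88 and 5.61 in normal libraries). Their part was not tested. In the same list Plod1 was at -1.53 (adjusted p 0.0504) and Bnip3l at 1.40 (adjusted p 0.0532). Over the list the median stood 0.33 above that of all genes.

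The other glycolysis genes (28 tested) had 0 that passed by limma in BAPN against normal and 5 (17.9%) at an unadjusted p under 0.05, beside 32.4% of all tested genes. The 4 with the smallest p were Slc2a3 at 2.47 (adjusted p 0.0552), Eno2 at 2.04 (0.0558), Aldoc at 2.92 (0.0622) and Pfkfb2 at -1.40 (0.076). Slc2a3, a high-affinity glucose transporter, measured 27.9 and 31.8 FPKM in BAPN libraries, against 6.39 and 3.16 FPKM in normal libraries. It measured 16.2 and 9.8 FPKM in TPA libraries, 7.11 and 1.96 FPKM in T-5224 libraries and 1.49 FPKM in coQ10. Against BAPN, its change was -2.65 in T-5224 (adjusted p 0.148) and -3.63 in coQ10 (adjusted p 0.185). Slc2a3 is abundant in neutrophils, whose markers averaged 4.61 and 3.11 in TPA, 2.33 and 2.84 in T-5224, 2.09 in coQ10, 4.98 and 4.17 in BAPN, and 1.76 and 1.42 in normal libraries. Their part in the Slc2a3 values was not tested. In T-5224 against BAPN, Eno2 was at -2.20 (adjusted p 0.148) and Aldoc at -2.89 (adjusted p 0.162).

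The 11 oxygen sensing genes had 0 passing in BAPN against normal and 5 (45.5%) at an unadjusted p under 0.05, beside 32.4% of all tested genes, and their median stood 0.36 below that of all genes. Egln1, the main oxygen sensor, was at -1.63 (adjusted p 0.0599), Hif1an, a hydroxylase that blocks HIF activity, at -1.04 (0.0766), Cited2, which competes with HIF for its coactivator, at -1.04 (0.0821) and Arnt, the HIF partner subunit, at -0.91 (0.0962). Hif1a measured 25.3 and 19.6 FPKM in BAPN, against 22.4 and 28.2 FPKM in normal libraries, and Epas1, which encodes HIF-2 alpha, 56.0 and 47.3 FPKM, against 196 and 119 FPKM. Arnt2 measured 2.19 and 3.04 FPKM in BAPN, against 1.10 and 0.25 FPKM in normal libraries (adjusted p 0.126). Hif3a, Vhl, Egln2 and Cited4 had adjusted p of 0.249 to 0.627. None of the 11 passed in the other 4 comparisons.

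Among 15 receptors and relatives of the secreted proteins, 0 passed in BAPN against normal and 5 (33.3%) had an unadjusted p under 0.05, beside 32.4% of all tested genes. Figf, a VEGF relative, was at -1.59 (adjusted p 0.0709), Calcrl, the adrenomedullin receptor core, at -1.09 (0.0831), Kdr, the main VEGF receptor, at -1.49 (0.106) and Ramp3, a partner of Calcrl, at 1.17 (0.103). Kdr measured 11.7 and 17.6 FPKM in BAPN libraries, against 64.0 and 27.8 FPKM in normal libraries. The 8 endothelial markers, Kdr among them, averaged 5.79 and 5.53 in BAPN and 6.06 and 5.33 in normal libraries. Of 16 stress genes related to Ddit4, 0 passed and 2 (12.5%) had an unadjusted p under 0.05 in that comparison. In T-5224 replicate 2, Tsc22d3 and Sgk1, glucocorticoid-induced genes chosen after their values were seen, were at 324 and 228 FPKM, against 31.4 and 31.0 FPKM in replicate 1. In coQ10 against BAPN, Per1, a clock gene, was at 1.99 (adjusted p 0.185), the smallest p of this list there.

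Over the other 4 comparisons 0 genes of the 5 lists passed. In TPA against BAPN, 1 of 29 HIF targets, 4 of 28 glycolysis genes, 1 of 11 oxygen sensing genes, 3 of 15 receptors and relatives and 0 of 16 stress genes had an unadjusted p under 0.05, beside 10.2% of all tested genes. Hilpda was at -1.84 (adjusted p 0.316) and Cited2 at 1.48 (0.32). In T-5224 against BAPN the counts were 8, 4, 3, 1 and 1, beside 18.3% of all tested genes, with Cxcr4, a chemokine receptor of leukocytes, at -2.49 (adjusted p 0.171) and Ramp3 at -1.63 (0.16). In coQ10 against BAPN they were 4, 4, 2, 2 and 1, beside 19.8%, with Hilpda at -1.56 (adjusted p 0.191). In TPA against T-5224 they were 3, 1, 0, 1 and 1, beside 10.9%, with Kdr at 1.63 (adjusted p 0.443). The glycolysis list stood 0.71 above the median of all genes in TPA against T-5224, and its muscle isoform Eno3 measured 244 and 372 FPKM in TPA, against 7.06 and 112 FPKM in T-5224 libraries. Skeletal muscle markers averaged 8.69 and 9.50 in TPA, against 1.35 and 8.45 in T-5224 libraries, and their part was not tested.

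**Figure D5:**
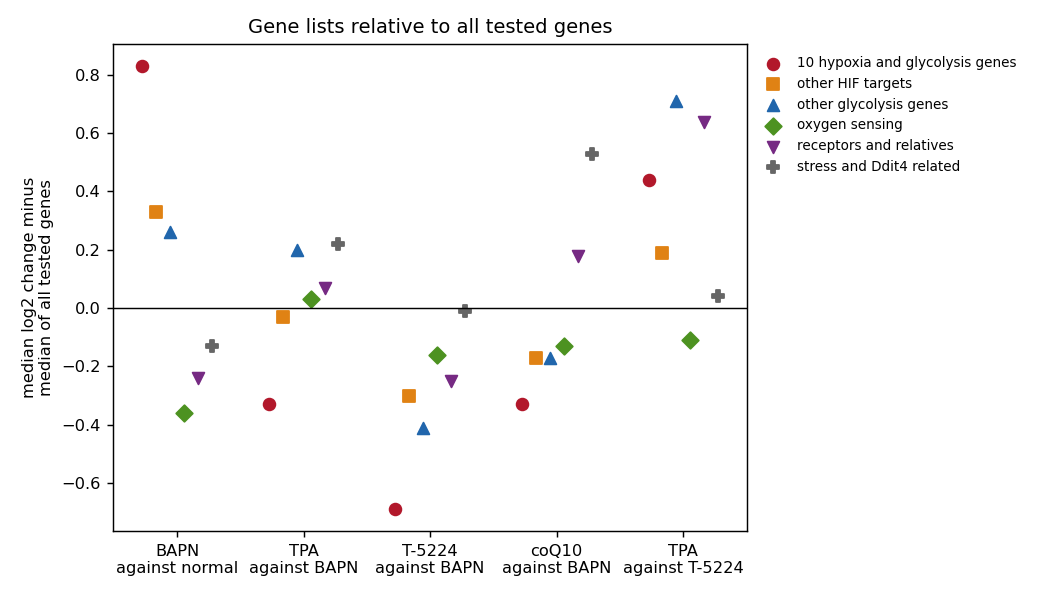
Median log2 change of each gene list minus the median over all tested genes, in the 5 comparisons. The 10 genes stand at 0.83 in BAPN against normal and at -0.69 in T-5224 against BAPN, and the other glycolysis genes at 0.71 in TPA against T-5224.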

How the data were processed

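RNA sequencing of mouse aorta gave 9 libraries in 5 groups. Per the labels' protocols, Trizol was used for extraction and a TruSeq RNA kit for library construction. For each library the authors deposited FPKM by gene symbol, to 2 decimals, leaving out genes at 0. The submitters' processing notes name the mm10 build. The aligner, counter and annotation are not stated in the sources used here. Absolute depth is unknown, and a relative depth read from low values (T-5224 replicate 2 only roughly) ran from 0.73 to 1.1 times BAPN replicate 2.

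Unlisted genes were set to 0. The fit covered 12997 of 17179 genes, those whose FPKM averaged 1 or more across libraries, on log2(FPKM + 1) in limma 3.58.1 (R 4.3.3), with 5 groups, 4 residual degrees of freedom and a variance trend. Two-sided p-values took the Benjamini-Hochberg adjustment across all genes fitted, with a threshold of 0.05. The script was tested on simulated data whose noise was set below the spread between these replicates. That test therefore does not show how the fit performs at the real spread. Tables and figures used python 3.11.15, pandas 2.3.3, numpy 2.4.6 and matplotlib 3.10.9. Coordinates and promoters came from RefSeq GRCm38.p6, and transcript lengths and overlapping genes from GENCODE release M 21. All 10 genes are named, with up to 4 genes of smallest p per related list and comparison. The genes, lists and tests were chosen with earlier results of these data known, so no p was adjusted over a list alone. Alternatives were another offset (0.1), no filter, only the 2 groups compared, median-of-ratios scaling, TPM, haemoglobin left out, quantile normalization, a length trend removed, a replicate block and libraries left out. Replicate numbers are shared between groups, but deviations of same-numbered libraries correlated at -0.437 to 0.176, so the numbers were not taken as pairs.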

Additional observations from a re-analysis of the deposited data

How the results depend on the processing

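Of 930 values of single genes under the alternatives, 892 kept their side of the threshold without a reversal that either fit called, 8 lost a call, 27 gained one and 3 reversed, while 60 changed sign where neither fit passed. The reversals were all in TPM: Pgk1 (-1.18) and Ldha (-1.58) in BAPN against normal, and Slc2a1 (1.24) in coQ10 against BAPN. In BAPN against normal, 1 of the 10 genes passed as reported, 0 passed with only the 2 groups fitted, 6 in TPM (1 higher, 5 lower) and 0 with the replicate block. In TPA against BAPN, 0 passed as reported and 2 with only the 2 groups, where 972 of all tested genes passed. In T-5224 against BAPN, 0 passed as reported, 1 with median-of-ratios scaling, 1 in TPM and 1 with haemoglobin left out. In coQ10 against BAPN, 0 passed as reported and 5 in TPM, and no replicate block was fitted there, since coQ10 is 1 library. In TPA against T-5224, 0 passed as reported. Calls among the 10 genes in fits that left libraries out are not listed by comparison, since counts over all tested genes moved with them. The median of the 10 genes relative to all genes ranged, with 1 library left out, from 0.43 to 1.00 in BAPN against normal, -0.44 to -0.23 in TPA against BAPN, -1.13 to -0.28 in T-5224 against BAPN, -0.41 to -0.21 in coQ10 against BAPN and -0.12 to 0.89 in TPA against T-5224. The cause of these differences was not tested. Under the replicate block Stc1 in BAPN against normal had an adjusted p of 0.0721 by limma.

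Counts over all tested genes moved far more. In BAPN against normal 424 passed as reported (117 higher, 307 lower), 226 with median-of-ratios scaling (196 higher, 30 lower), 9637 in TPM (156 higher, 9481 lower), 325 with quantile normalization (259 higher, 66 lower), 97 with the length trend removed (39 higher, 58 lower), 30 with haemoglobin left out (28 higher, 2 lower), 152 with the smaller offset, 53 without the filter, 37 with only the 2 groups, 8 under the replicate block, and 0 to 3670 with 1 library left out. As reported, 5 genes passed in TPA against BAPN, 4 in T-5224 against BAPN, 2 in coQ10 against BAPN and 2 in TPA against T-5224. Elsewhere the highest counts were 3168 in T-5224 against BAPN and 7328 in coQ10 against BAPN, both in TPM. For TPA against BAPN and TPA against T-5224 they came from fits that left libraries out. Unknown depth limits values near 0, such as those of Stc1 in normal libraries.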
